A study of Caenorhabditis elegans with 2 samples.

Results

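The 49 Caenorhabditis elegans genes described here act in germline development and meiosis. They were chosen by name and not by a measured value, but with earlier results of these data known. They code for P granule components, maternal RNA-binding proteins, translational regulators, germline receptors and the chromosome proteins of meiosis. All 49 symbols are in the Ensembl annotation, which holds 46890 genes on the 6 chromosomes, 19973 of them protein-coding. For each gene the peak with the highest signal was taken whose summit lay within 1000 bp of one of its transcript starts, in the ranked list made by comparing the replicates. Such a peak was found for 43 of the 49 genes.

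The peaks come from chromatin immunoprecipitation followed by sequencing (ChIP-seq) of tagged BED-2. There was 1 group of 2 biological replicates, both of strain RW12335, which carries the allele st12335[TY1::EGFP::3xFLAG::bed-2] on chromosome III, inserted with CRISPR. Both were whole young adults aged 63 hours, synchronized by bleaching and starvation as L1 larvae. The labels give an immunoprecipitation after sonication. The description names an anti-GFP antibody, which is followed here, while the antibody tag names bed-2. The labels do not say whether the replicates were grown as separate cultures, and no untagged or other comparison group was analysed here. Because whole worms were used, a peak in few cells and weak binding in many cells cannot be told apart. The lists hold peaks and no expression values, so the tissue label was not checked against marker genes. No read counts are given either, so that depth is unknown for both replicates and no counting interval can be had. With 1 group, and a list chosen by name, no test was run, and counts and medians of the 49 genes are set beside the same values over all genes.

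In C. elegans the germline is set aside in the early embryo, where cytoplasmic P granules and maternal RNA-binding proteins are partitioned into the germline precursor. In the adult gonad, mitotic germ cells are kept by Notch signalling, and as cells leave that signal a network of RNA-binding proteins controls their entry into meiosis and the making of sperm and oocytes. In meiotic prophase, homologous chromosomes pair through special regions, are joined by the synaptonemal complex and recombine. BED-2 carries a zinc finger of the BED type, a kind of DNA-binding domain.

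Most of the listed genes had a BED-2 candidate peak near a start, but few had one that passed the threshold on reproducible ranks in the replicates. A ranked summit was present at 43 of 49 listed genes (87.8%), against 66.5% of all annotated genes and 80.6% of protein-coding genes. A ranked list holds every candidate before thresholding, 82301 here, so its presence near a gene says little. The conservative list holds the 615 peaks that pass a threshold on the global irreproducible discovery rate (IDR). This measure compares the ranks of a peak in the replicates, with low values for peaks ranked alike and high in both. A weak peak can have a high value though its replicates are alike. The highest global IDR in that list is 0.01. Of the 43 genes, 3 (6.98%) had a summit in the conservative list, against 2.98% of all genes with a ranked summit (928 of 31161) and 3.25% of the protein-coding ones (523 of 16092). They were mex-1 and pos-1, which code for CCCH zinc finger proteins that bind maternal mRNAs, and syp-4, which codes for a central region protein of the synaptonemal complex. The same 3 genes had a summit in the optimal thresholded list.

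At each of these 3 genes the summit lay upstream of the start, and at each of them another annotated gene started nearer to it. Among all genes with a conservative summit, 49.8% were themselves the nearest to their highest conservative summit, and 53.5% of the protein-coding ones were. The summit was upstream of the start for 83.2% of the protein-coding genes with a conservative summit. The pooled signal, the authors' own value per peak in the units of their peak caller, was 86.9 at mex-1, 81.2 at pos-1 and 77.8 at syp-4. The 615 conservative peaks have a median signal of 85.3 and a highest of 458.8, so mex-1 lay just above the middle of the called peaks and the others just below it. Of the genes with a ranked summit, ranked from low to high, mex-1 stood at percentile 98.4 by signal, pos-1 at 98.02 and syp-4 at 97.7.

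The windows reaching 100 bp to either side of the summits at mex-1 and pos-1, and at the next listed gene by global IDR, pgl-3, are shown because these calls and the nearest miss rest on them and each has a nearer neighbour. They were read from the RefSeq genome of assembly WBcel235, which is ce11, on the + strand. At mex-1 and pgl-3 the capitals mark the words searched for, and at pos-1 they mark a stretch of 61 bp that occurs again in the genome, here set beside 1 such copy at V:20808400-20808460 on the - strand. Both mex-1 windows lie on chromosome II, at 11967632 to 11967832 for the highest summit and at 11968401 to 11968601 for the second highest. The pos-1 window is V:8413683-8413883 and the pgl-3 window is V:4754903-4755103.
mex-1 highest summit: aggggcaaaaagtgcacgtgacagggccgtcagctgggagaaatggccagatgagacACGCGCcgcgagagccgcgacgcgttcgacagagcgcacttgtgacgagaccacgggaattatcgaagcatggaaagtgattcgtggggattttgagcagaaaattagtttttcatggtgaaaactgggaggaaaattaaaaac
mex-1 second summit: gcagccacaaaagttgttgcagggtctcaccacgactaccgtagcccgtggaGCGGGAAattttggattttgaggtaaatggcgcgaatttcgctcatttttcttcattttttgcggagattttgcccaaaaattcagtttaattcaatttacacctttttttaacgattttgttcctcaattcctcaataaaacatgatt
pos-1 summit: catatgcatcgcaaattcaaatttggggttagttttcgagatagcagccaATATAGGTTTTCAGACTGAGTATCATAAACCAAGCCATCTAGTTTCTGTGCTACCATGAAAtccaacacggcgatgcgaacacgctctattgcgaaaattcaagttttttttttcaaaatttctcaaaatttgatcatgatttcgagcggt
pos-1 copy: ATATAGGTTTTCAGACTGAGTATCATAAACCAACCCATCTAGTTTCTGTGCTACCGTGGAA
pgl-3 summit: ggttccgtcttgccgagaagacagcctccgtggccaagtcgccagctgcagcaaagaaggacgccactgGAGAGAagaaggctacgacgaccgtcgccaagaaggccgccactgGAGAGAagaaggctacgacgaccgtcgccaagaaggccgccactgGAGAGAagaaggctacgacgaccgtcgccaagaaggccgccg

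Each window reaching 50 bp to either side of a highest summit was searched on both strands for 4 words. The word ACGCGC was taken from earlier results of these data. So was the word GTACAC. The word TTCCCGC is of the E2F type. The word GAGAGA is the repeat known from GAGA factors. No word contains another, though the ends of ACGCGC and TTCCCGC can overlap. The 43 listed genes have 42 distinct highest summits, since pgl-1 and him-3 share 1, and all genes have 20407. ACGCGC was in 1 window of the listed genes (2.38%), against 2.62% of all windows, and that window was the one of mex-1, where the word begins 43 bp to the left of the summit. GTACAC was in 0 windows, against 2.99%, and TTCCCGC in 0 windows, against 1.45%. GAGAGA was in 3 windows (7.14%), against 7.62%: those of mex-3, pgl-3 and the summit shared by pgl-1 and him-3. The shares of the listed genes were thus near those of all windows for ACGCGC and GAGAGA. In the printed pgl-3 window GAGAGA begins 31 bp to the left of the summit and again 14 and 59 bp to its right. The last of these lies outside the searched window. Each lies in a copy of a longer sequence that repeats in tandem there, so they are not separate finds. In the second mex-1 window the reverse complement of TTCCCGC begins 48 bp to the left of that summit, but only highest summits entered these counts. The median GC content of the searched windows was 42.6% at the listed genes and 41.6% over all genes, and it was 56.4% at mex-1, 41.6% at pos-1 and 60.4% at pgl-3.

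mex-1 (WBGene00003228, II:11968637-11972330, + strand) specifies germline fate in the early embryo. Its highest peak, II:11967572-11967891, was intergenic, with the summit 905 bp upstream of the mex-1 start and a global IDR of 0.003365. For each pooled peak the ranked list also gives the signal of the matching peak in either replicate. Here this matched signal was 50.7 in the first replicate and 35.8 in the second, and both were well above most matched peaks of listed genes. The starts of W03C9.5 and of rab-7, which codes for a small GTPase of late endosomes, lie nearer to the summit, at 188 and 801 bp, and both genes run the other way. A second summit, at -136 bp from the mex-1 start on the upstream side, had a signal of 62.8, with matched signals of 32.8 and 31.7 and a global IDR of 0.0144, just outside the threshold. This second summit, the nearer one to the mex-1 start, was singled out after its values were seen. In all, 7 ranked summits lay within reach of mex-1, against a median of 3 for the listed genes and 2 for all genes.

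pos-1 (WBGene00004078, V:8414086-8415254, + strand) is needed for the fates of posterior embryonic cells. Its peak, V:8413623-8413942, was intergenic, with a global IDR of 0.003571 and matched signals of 39.1 and 39.0, the most even pair among the called listed genes. The summit was 303 bp upstream of the pos-1 start and 301 bp upstream of the start of vha-18, a subunit gene of the vacuolar proton pump that runs the other way. The summit is thus at the middle of a divergent gene pair, and which gene it belongs to cannot be told from distance. A search of the summit windows against the genome, added after the data were seen, found 41 other copies of part of the pos-1 window, of 52 to 62 aligned bases and 81.5% to 98.2% identity. Of these, 7 lay in a ranked peak, with a median signal of 27.3 and a highest of 63.2, and 0 lay in a conservative peak. Here and below each alignment was counted as a copy, and alignments can overlap.

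**Figure D1:**
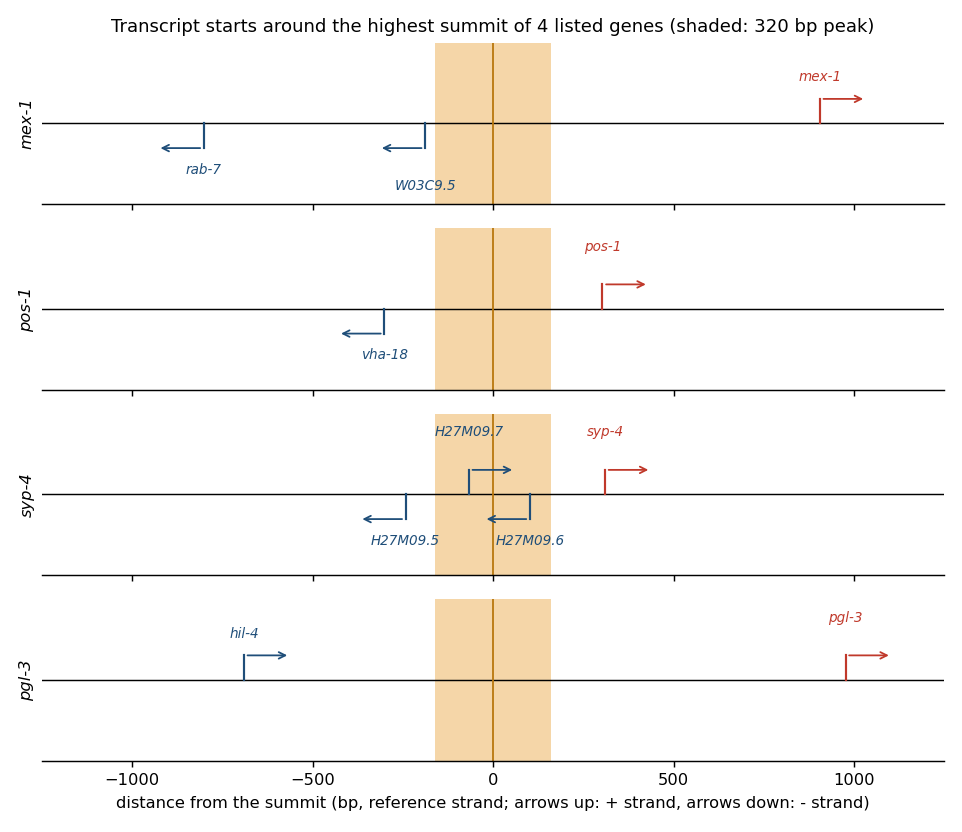
Transcript starts within reach of the highest summit of mex-1, pos-1, syp-4 and pgl-3, as distance from the summit in bp along the reference strand; the shaded band is the peak, red marks the listed gene and blue the other genes. At mex-1, pos-1, syp-4 and pgl-3 at least 1 blue start lies nearer to the summit than the red one, by only 2 bp at pos-1.

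Maternal CCCH and KH proteins, which bind mRNAs in oocytes and early embryos, had the highest median signal of the role groups in the pooled list, but not in replicate 1 alone. Here and in the groups below, counts stand against 80.6% of protein-coding genes with a ranked summit and, among those, 3.25% with a conservative one. Of the 8 maternal genes, 7 had a ranked summit and 2 a conservative one. Their median signal was 47.4 and their median percentile 88.2, and 6 of the 7 lay above the median of all genes, 29.1. In the own ranked list of replicate 1 their median percentile was 46.6 over 8 genes, below the 77.8 of the P granule genes, and in that of replicate 2 it was 93.4 over 7 genes. After mex-1 and pos-1 came mex-3, which codes for a KH-domain repressor of translation, with a signal of 58.6 in an intron 316 bp upstream of an internal start. Its matched signals of 24.3 and 28.1 were alike, and its global IDR was 0.0720. At oma-1, a CCCH protein of maturing oocytes, the signal was 47.4 in its coding exon, 614 bp downstream of the start, with matched signals of 12.3 in the first replicate and 37.3 in the second. pie-1, which represses transcription in germline precursors, had 42.0, with 11.4 and 33.8 in the first and the second replicate. At oma-1 and pie-1 the second signal was 3.03 and 2.97 times the first. The pie-1 summit lay 222 bp past the end of the gene, in snr-6, an Sm core protein gene whose start was 212 bp away. oma-2, the paralog of oma-1, had 31.6, 901 bp upstream and in the intron of F43H9.4, and mex-6 had 27.8, upstream by 370 bp. mex-5, the close relative of mex-6 in anterior-posterior polarity, had no ranked summit.

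P granule genes had ranked summits at 7 of 8, none in the conservative list, with a median signal of 32.9 at percentile 61.8. The highest was pgl-3, which codes for a self-assembling RGG-box protein, with 54.8 and a global IDR of 0.0126, the nearest to the threshold among the uncalled listed genes. Its matched signals were 28.2 and 38.1. The summit lay 976 bp upstream of pgl-3 in a coding exon of hil-4, a linker histone gene whose own start was 690 bp away. Part of that window has 3 other aligned copies, in the linker histone genes hil-3 and hil-5, with 81.6% to 88.7% identity. Of the 3, 2 overlap in hil-3. Alignments that overlap the window itself were left out, so the tandem repeat within it is not counted. The pgl-1 signal of 32.9 came from a summit in the coding exon of him-3, 522 bp upstream of pgl-1 and 314 bp downstream of the him-3 start. Its matched signals were 23.5 in the first replicate and 9.7 in the second, so that the replicates differed by over 2 times at this shared summit.

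The 4 glh genes code for Vasa-related DEAD-box helicases and had unlike signals. glh-1 had 52.5 in its own coding exon, 622 bp downstream of the start, with even matched signals of 26.0 and 27.6 and a global IDR of 0.0604. glh-4 had 32.9, 342 bp upstream, and glh-3 had 26.6, 33 bp downstream of its start in the 5′ UTR. At both, the second replicate was the higher, with 8.03 and 23.0 at glh-4 and 5.12 and 20.2 at glh-3 in the first and the second replicate. glh-2 had 11.2, the lowest pooled signal of the listed genes, at percentile 2.88, but replicate 1 alone had a summit 367 bp downstream with 20.2, at percentile 69.9 of its own list, while replicate 2 alone had 9.62 at percentile 4.23. meg-1, which codes for a disordered protein that directs P granule segregation in the embryo and is the single listed gene on the X chromosome, had 42.5, 636 bp downstream, with 20.9 and 23.3. deps-1, a P granule assembly gene, had no ranked summit.

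Translational regulators of the germline had ranked summits at 12 of 12, against 80.6% of protein-coding genes. None was in the conservative list, against 3.25% of protein-coding genes with a ranked summit. The group had a median signal of 27.5 and a median percentile of 44.2. The highest was gld-2, which codes for a cytoplasmic poly(A) polymerase, with 47.1 in an intron and matched signals of 31.5 and 24.2. That window is repetitive, with 465 other aligned copies of 80% to 94.1% identity, some of which overlap each other. Of these, 251 lay in a ranked peak, some of them in the gld-2 peak itself, and 0 in a conservative one. spn-4, which codes for an RNA-binding protein of the early embryo, had 40.7, 226 bp upstream, with 21.9 and 21.1 and with the divergent start of spe-39 at 322 bp. nos-3, a NANOS gene, had 36.4, and its relative nos-2 had 23.2 from a summit inside him-14. gld-1, a STAR-domain repressor of translation, had 32.6 and lin-41, a TRIM-NHL regulator of oocytes, had 31.8. The PUF genes fbf-1, fbf-2 and puf-5 had 30.6, 23.9 and 23.3. The fbf-2 summit lay 502 bp upstream, in a coding exon of nspg-3, whose start was nearer at 215 bp. The fbf-1 window matches fbf-2 at 99.0% identity over its whole length. cpb-3, a CPEB gene, had 24.5 from a summit in the 3′ UTR of its neighbour glh-3, 774 bp upstream of cpb-3. daz-1, a DAZ-family gene, had 20.3 and gld-3, a Bicaudal-C relative and partner of gld-2, had 15.1.

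Of the germline RNP proteins, car-1, an Sm-like protein gene, had 38.1, with 10.3 in the first replicate and 22.5 in the second, and its partner helicase gene cgh-1 had 16.4. Of the receptors, the yolk receptor gene rme-2 had 36.7 with matched signals of 14.4 and 23.5. glp-1, the Notch receptor gene that keeps germline stem cells mitotic, had 22.2 in an intron, at percentile 25.9, with 7.04 and 21.8; it stood at percentile 62.8 in replicate 2 alone and had no summit within reach in replicate 1's own list. None of these 4 genes had a summit in the conservative list, and car-1 and rme-2 lay above the median of all genes.

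**Figure D2:**
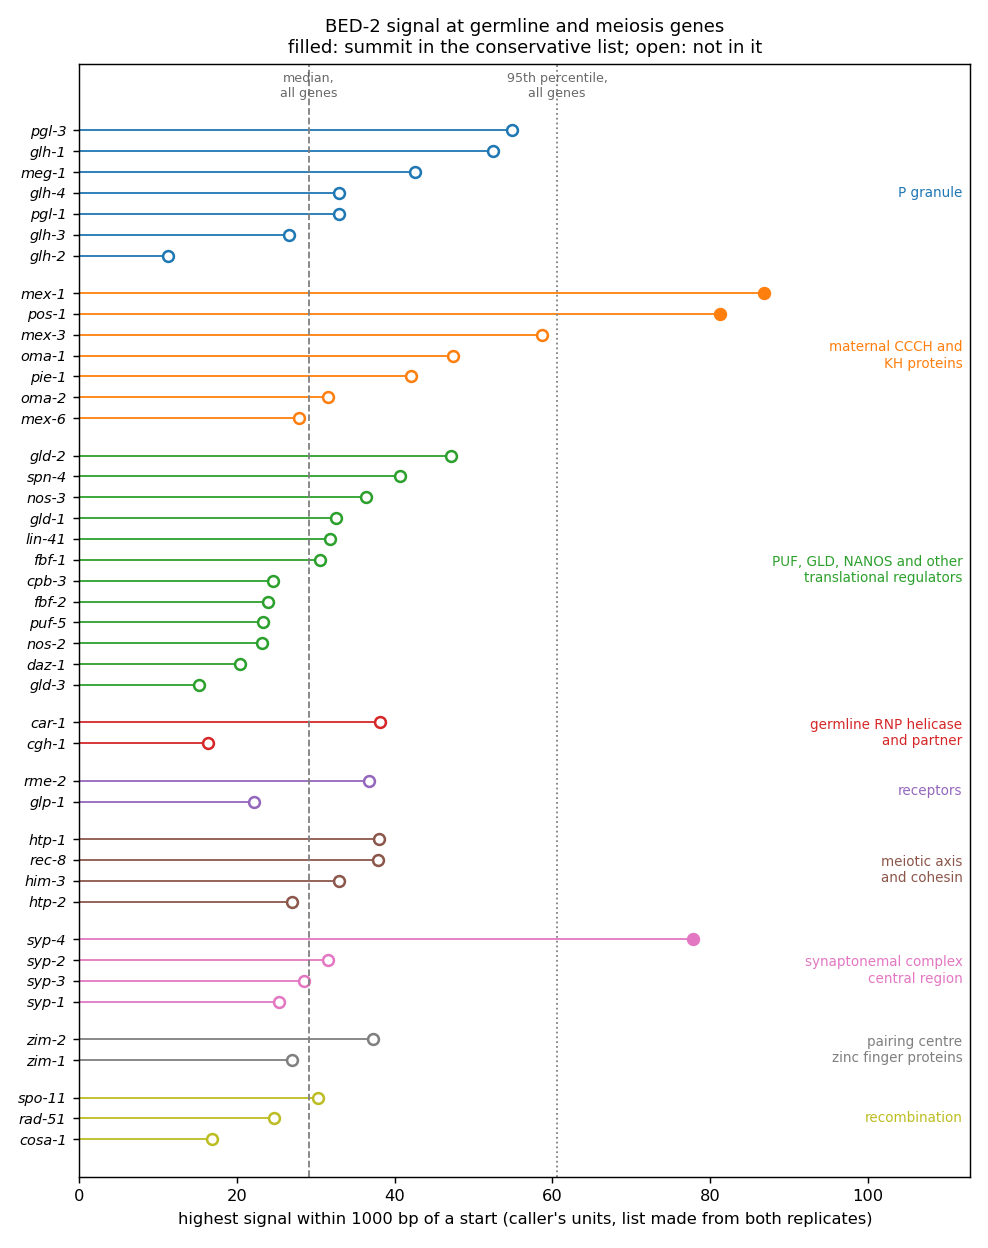
Highest pooled signal within 1000 bp of a start, in the peak caller's units, for the 43 listed genes with a ranked summit, grouped by role; the dashed line is the median of all genes and the dotted line the level exceeded by their top 5%. Filled points, in the conservative list, are mex-1, pos-1 and syp-4, and they are the only points right of the dotted line.

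Of the synaptonemal complex genes, syp-4 (WBGene00019247, I:6847511-6849923, + strand) had the called peak, I:6847041-6847360, with a signal of 77.8 and a global IDR of 0.004116. Its matched signals were 37.8 in the first replicate and 39.0 in the second, an even pair. The summit was 310 bp upstream of syp-4 and lay inside 2 short overlapping RNA genes, the ncRNA H27M09.7 and the snRNA H27M09.6, whose starts were 67 and 102 bp away. The start of a protein-coding gene that runs the other way, H27M09.5, lies on the other side of the summit from syp-4. It too is nearer to the summit than the syp-4 start, so syp-4 is not the nearest protein-coding gene to this peak. The conservative list holds a second row near this start, at -111 bp with a signal of 6.66, that carries the same matched replicate peaks and so adds no further measurement. The summit window has 11 other copies, with 87.9% to 98.02% identity over 99 to 107 aligned bases, and 11 of the 11 lie in snRNA genes. All 11 copies lay in a ranked peak, with a median signal of 58.5 and a highest of 93.8, and 2 of them in a conservative peak. Whether reads from such copies contribute to the peak at syp-4 was not tested. syp-2 had 31.5, 138 bp upstream with the start of cox-16 nearer at 106 bp, while syp-3 had 28.6 and syp-1 had 25.3. The syp-3 summit lay in its 3′ UTR, 977 bp from the start, with matched signals of 16.9 and 6.09.

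Genes of the meiotic axis and cohesin had ranked summits at 4 of 5, with a median signal of 35.4 at percentile 67.9 and none in the conservative list. htp-1, a HORMA-domain axis gene, had 38.1, with 6.22 in the first replicate and 25.9 in the second, the largest ratio of second to first among the listed genes (4.16). Its close relative htp-2 had 27.0, with even matched signals of 15.9 and 17.3. The windows of htp-1 and htp-2 each match the other gene over their whole length, at 86.1% and 90.1% identity. rec-8, the meiotic kleisin of cohesin, had 37.9, with 13.0 and 22.3, and its summit lay 532 bp past the end of the gene, inside W02A2.9, with the start of W02A2.12 nearer at 241 bp. him-3, a HORMA-domain gene, shared the summit given for pgl-1, and htp-3 had no ranked summit.

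The pairing centre genes code for C2H2 zinc finger proteins, each of which binds the pairing region of given chromosomes. zim-2 had 37.3, with the summit 13 bp from an internal start, the nearest to a start among the listed genes, and matched signals of 14.4 and 22.7. zim-1 had 27.0 in an intron, with 11 other copies of that window, 8 of them in a ranked peak. zim-3 and him-8, in the same gene cluster on chromosome IV, had no ranked summit. Of the recombination genes, spo-11, which makes the initiating breaks, had 30.3, rad-51, the strand exchange gene, had 24.7, and cosa-1, a crossover-site cyclin-like gene, had 16.8. msh-5, a crossover MutS gene, had no ranked summit, and no pairing centre or recombination gene was in the conservative list.

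The 6 listed genes without a ranked summit were deps-1, htp-3, mex-5, zim-3, him-8 and msh-5. Their nearest ranked summits lay 1634 bp away at deps-1, 1641 bp at htp-3, 2001 bp at mex-5, 2853 bp at zim-3, 2855 bp at him-8 and 5248 bp at msh-5. Just inside the 1000 bp limit were syp-3, at 977 bp, and pgl-3, at 976 bp, so no gene lay close to the outside of the limit. The list of each replicate alone adds some candidates. Replicate 1 had summits at htp-3 (signal 22.1), deps-1 (17.1), mex-5 (15.5) and msh-5 (17.9). Replicate 2 had summits at him-8 (20.3) and msh-5 (18.6), and neither had one at zim-3. The highest of these, at htp-3, stood at percentile 77.7 of the genes in the list of replicate 1, and none was in a thresholded list.

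Taken as a list, the 43 genes had a median signal of 31.8 (quartiles 24.98 and 39.4, range 11.2 to 86.9), against 29.1 over all genes with a ranked summit (quartiles 21.9 and 38.3) and 29.8 over the protein-coding ones. Their median percentile was 58.5. Of the 43, 3 were in the top 5% of genes by signal, 6 (14%) in the top 10% and 11 (25.6%) in the top 25%, while 5 (11.6%) were in the bottom 25%. The median percentile was not stable across settings: it was 48.5, below the middle, with a distance of 500 bp, 51.5 in replicate 1 alone and 62.0 in replicate 2 alone, and protein-coding genes as a whole stood at 52.2.

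The highest summits of the listed genes lay more often in coding exons and less often near the start than those of all genes, a difference in shares that was not tested. Upstream summits were found at 16 genes (37.2%), against 47.6% of all genes and 47.8% of protein-coding genes. Within 250 bp of the start there were 4 (9.30%), at zim-2, glh-3, syp-2 and spn-4, against 30.6% of all genes. Between 500 and 750 bp downstream there were 14 (32.6%), against 11.7% of all genes. The median distance from the start was 586 bp, against 451 bp. Coding exons held 25 of the 43 summits (58.1%), against 28.5% over all genes and 38.5% over protein-coding genes, and intergenic sequence held 7 (16.3%), against 34.2% and 29.8%. The summit lay inside the gene itself at 27 genes (62.8%), against 34.2% of all genes and 53.1% of protein-coding genes. No other start was nearer at 32 genes (74.4%), against 61.0% and 77.6%. None of these 25 coding summits was in the conservative list, in which the calls of listed genes were 2 intergenic summits and 1 in RNA gene exons.

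**Figure D3:**
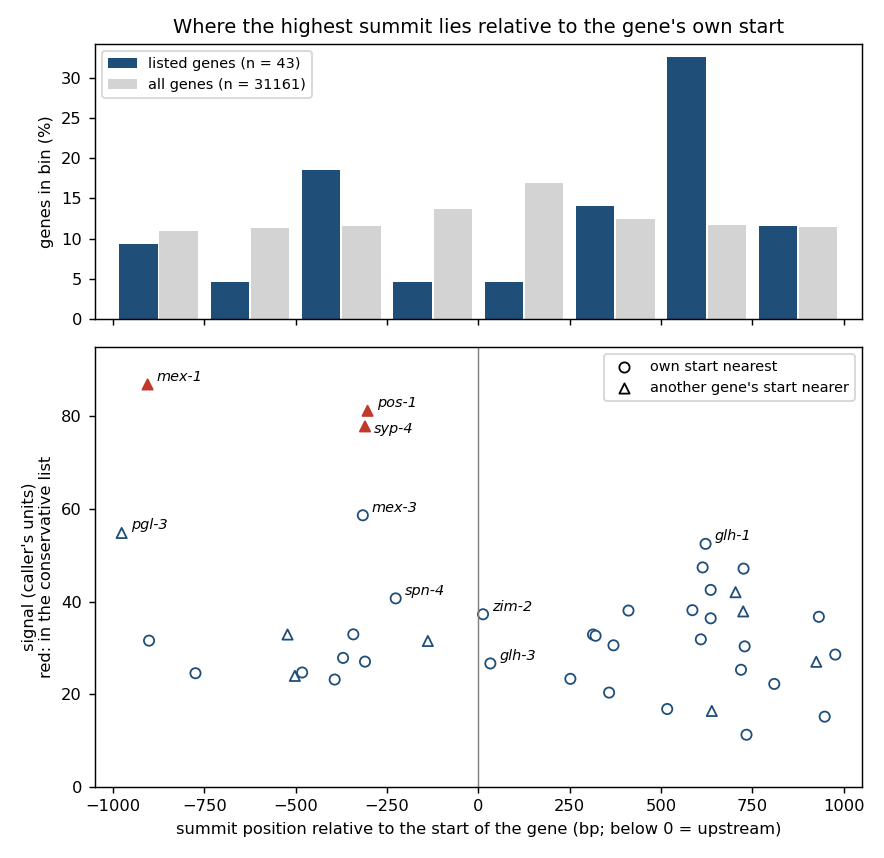
Position of the highest summit relative to the gene's start, in bp, upstream below 0: above, the percentage of the listed genes (n = 43) and of all genes (n = 31161) in bins of 250 bp; below, each listed gene with its signal, with triangles where another gene starts nearer and red for the conservative list. The bin from 500 to 750 bp holds 32.6% of the listed genes and 11.7% of all genes, and the red points are the upstream triangles of mex-1, pos-1 and syp-4.

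Agreement between the replicates was weak over the listed genes, as it was over all genes. The file that gives the matched signals does not name which sample is the first and which the second. By position, 57.1% of first matched peaks were peaks of replicate 1's own ranked list and 0 were of replicate 2's, and 57.4% of second ones were peaks of replicate 2's and 0 of replicate 1's. The second signal was the higher at 31 of the 43 genes (72.1%), against 60.8% of all genes, and the median ratio of second to first was 1.35, against 1.17. Ratios above 2 were found at 8 genes (18.6%), against 17.9%, and below 0.5 at 3 (6.98%), against 7.03%. Across the 42 distinct summits, Spearman's rho of the matched signals was 0.392 and Pearson's r of their log2 values was 0.375, against 0.236 and 0.310 over the 20407 summits of all genes. Points of such a correlation share the same libraries, and 26.1% of ranked peaks share both matched peaks with another row, so these values describe the lists and carry no p.

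**Figure D4:**
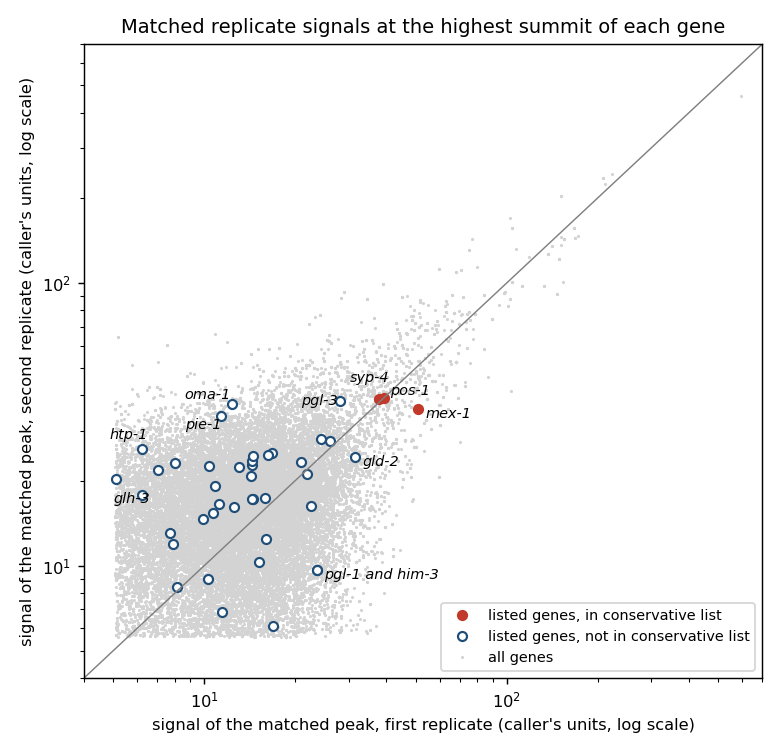
Signal of the matched peak in the first and the second replicate, in the peak caller's units on log axes, at the highest summit of each listed gene and of all genes, with the line of equal signal. The 3 called genes lie at 37.8 or more in the first and 35.8 or more in the second replicate, while htp-1, oma-1 and pie-1 are high in the second only and the shared summit of pgl-1 and him-3 in the first.

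Each replicate's own thresholded list held fewer of the genes. In replicate 1 it held mex-1 alone, 1 of the 39 listed genes with a summit in that replicate's ranked list, against 1.38% of all genes. In replicate 2 it held 0 of 44, against 1.54%. By signal in the own lists, mex-1 stood at percentile 98.9 in replicate 1 and 93.5 in replicate 2, pos-1 at 97.5 and 95.4, and syp-4 at 97.1 and 95.4. The median percentile of the listed genes was 51.5 in replicate 1 and 62.0 in replicate 2. Across the 35 listed genes with a summit in both own lists, Spearman's rho of the percentiles was 0.335, against 0.347 across 19320 genes.

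Another copy of the summit window, of at least 50 bases and 80% identity, was found for 14 of the 43 listed genes (32.6%), against 27.5% of all genes, 26.1% of protein-coding genes and 34.2% of genes with a conservative summit. These were gld-2, pos-1, glp-1, syp-4, zim-1, cosa-1, glh-4, pgl-3, zim-2, fbf-1, htp-1, htp-2, mex-6 and glh-2. For fbf-1, htp-1, htp-2 and zim-2 the copies lie in the paralogs named fbf-2, htp-2, htp-1 and the pair zim-1 and zim-3. How the authors treated reads that map to more than 1 place is not given in the sources used here.

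By chromosome, the listed genes are 14 on I, 9 on II, 4 on III, 15 on IV, 6 on V and 1 on X. Chromosome X thus has 2.04% of them, against 13.7% of protein-coding genes, and chromosome IV has 30.6%, against 16.4%. Of the 6 genes without a ranked summit, 4 are on chromosome IV, among them zim-3 and him-8, which lie side by side. The share of all chromosome IV genes without a ranked summit was not counted, so no pattern by chromosome can be read from these 4.

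Beyond the 49 genes, a further list of 69 germline and meiosis genes gave a like count. It too was chosen with earlier results of these data known, so it is not an independent check. A ranked summit was present at 61 of them (88.4%), against 66.5% of all annotated genes and 80.6% of protein-coding genes. Of the 61, 4 (6.56%) had a conservative summit, against 2.98% of all genes with a ranked summit and 3.25% of the protein-coding ones. They were brc-1, atx-2, smc-3 and chs-1. The highest was at brc-1, a gene of meiotic DNA repair, with 143.9 and matched signals of 62.2 and 83.0, in a pseudogene whose start is 2 bp from the summit, with the brc-1 start 788 bp away. atx-2, the ataxin-2 gene that acts in germline translation, had 116.9 with 53.7 and 68.4, 46 bp upstream of its own start, which was the nearest. smc-3, a cohesin subunit gene, had 83.4 with 45.8 and 37.8, and mib-1 and gly-9 start nearer. chs-1, a chitin synthase gene of the eggshell, had 76.7 with 37.7 and 40.0, at 1 bp from its start. The median signal of the 61 genes was 33.8. Their summits lay within 250 bp of a start at 25 genes (41.0%), against 4 of the 43 listed genes (9.30%), a difference that was not tested.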

How the data were processed

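ChIP-seq of tagged BED-2 was analysed in 2 biological replicates of 1 group, grouped by the labels, from 8 deposited peak lists on ce11, 4 for the series as a whole and 4 for single replicates. Per the text deposited with the samples, each replicate list was made from the alignment of that replicate and a control, and the series lists from both alignments. Sources used here do not name the aligner or the peak caller, and the input control was not analysed here. The signal per peak is the authors' own deposited value, on a scale that is not stated, and was used only to rank and describe peaks within a list. The −log10 of the global IDR is deposited by the authors in the ranked list, and the deposited score followed from it within 1 for 100% of rows. The deposited summit offset gave the summit position. Another 2 columns of matched signals, in the ranked list that was not the main one, were not used. Files hold no read counts, so depth is unknown.

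From these lists each gene was given its highest summit within 1000 bp of any transcript start of Ensembl release 115, and a percentile among all genes with such a summit. Offsets below 0 are upstream. A gene counted as called where any conservative summit lay within that distance. The place of a summit was read in the order coding exon, 5′ UTR, 3′ UTR, exon of a non-coding RNA or pseudogene, intron and intergenic. Windows of 50 bp to either side of summits, read from the RefSeq sequence of that assembly, were searched for words and, with blastn 2.17.0, for other copies. The assignment code was checked on simulated summits planted with signals far above the noise near genes with a single start. This does not cover shared promoters or competing summits of like signal. Python 3.11.15, numpy 2.4.6, pandas 2.3.3, scipy 1.17.1 and matplotlib 3.10.9 were used.

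The 49 genes, their role groups, the further list and the words were chosen with earlier results of these data known. By the naming rule, every listed gene is accounted for, more values are given for called genes, the 15 genes with the highest signal and those without a ranked summit, and nearer neighbours of their summits are named, as are called genes of the further list. No comparison between conditions and no test was made. Alternatives were another peak list, IDR threshold, distance, assignment or gene set, and each replicate alone.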

Additional observations from a re-analysis of the deposited data

How the results depend on the processing

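The count of 3 listed genes with a conservative summit was 3 with the optimal list and 3 with upstream summits only, 2 at 500 bp, without mex-1, and 4 at 2000 bp or at a global IDR of at most 0.05, both of which add pgl-3. It was 0 at a global IDR of at most 0.001 and 0 where a summit counts only for the nearest start, because another start is nearer at all 3 genes. With 1 replicate alone it ranged from 0 to 1: without replicate 1 it was 0, and without replicate 2 it was 1, mex-1. Over all genes the count was 928 in the main setting, 949 with the optimal list and 632 with upstream summits only. It was 686 at 500 bp, 1298 at 2000 bp, 1751 at a global IDR of at most 0.05 and 320 at 0.001. With the nearest start only it was 477, without replicate 1 it was 408 and without replicate 2 it was 368. The further list's count of 4 was 2 at a global IDR of at most 0.001, 2 with the nearest start only, 2 to 3 with 1 replicate alone (2 without replicate 1), and between 3 and 6 elsewhere. The median percentile of 58.5 was 48.5 at 500 bp and between 51.5 and 62.6 under the other alternatives, 51.5 without replicate 2. Genes with a ranked summit numbered 35 to 45, against 43, and genes whose own start was nearest 28 to 34, against 32. Moves in percentile were set beside each gene's own SD between the replicates, for the 34 genes with a ranked summit in the pooled list and in both replicates' own lists. Of these, 11 moved by at least that SD with the nearest start only, 15 without replicate 1 and 17 without replicate 2. For the other 9 genes there is no such spread. The SD rests on the same values as the settings with 1 replicate alone, and it is large where they are unlike. A large move can then fall below it, as at pgl-1 with the nearest start only (61.7 to 15.8). The cause was not tested. No paired analysis was possible because there is 1 group only.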

Other observations

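At some listed genes the strongest summit within 1000 bp in 1 replicate's own ranked list lay elsewhere than the pooled one. At glh-1 the highest summit of replicate 1 lay at -90 bp, upstream of the start, with a signal of 38.2 at percentile 97.3 of that list, while that of replicate 2 lay 606 bp downstream with 27.6, near the pooled summit. The pooled list holds a summit at -64 bp from the glh-1 start with a signal of 44.7, matched signals of 38.2 and 9.85 and a global IDR of 0.718, so this summit near the start was high in replicate 1 only. At mex-3 the highest summit of replicate 2 was 420 bp downstream of a start, with 35.7, and that of replicate 1 was at -340 bp, upstream, with 24.3. At oma-2, within 1000 bp, replicate 1 had its highest summit at -859 bp, upstream, with 16.7. Replicate 2 had its highest within that limit 901 bp downstream, with 22.1. The second replicate's peak matched to the pooled summit at -901 bp, however, had a higher signal of 25.1. The strongest peaks of the replicates need therefore not lie apart at oma-2.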
